A study of Homo sapiens with 14 samples.

Results

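The miR-378 family was followed through both pulldowns of N7-methylguanosine (m7G) RNA in A549 cells, by the rows named hsa-miR-378a-3p, hsa-miR-378a-5p, hsa-miR-378c, hsa-miR-378d, hsa-miR-378f, hsa-miR-378g and hsa-miR-378i. These 7 rows were taken by name from the 2588 mature miRNAs of each count table, and the prefix hsa is left out below. A549 is a human lung adenocarcinoma cell line, and all 14 libraries were small RNA from total RNA of this line with no genetic change named. The assays asked which miRNAs carry m7G, a guanine with a methyl group on its N7 atom.

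BoRed-seq is a chemical pulldown. NaBH4, used together with free m7GTP, reduces m7G, and acid then strips the reduced base from the RNA. The gap it leaves is tagged with biotin and caught on streptavidin beads, which gave the 2 Red libraries. The 2 Ctrl libraries came from RNA given NaBH4 already inactivated by acid. The study's protocol names this RNA in the later acid and biotin steps too, so Ctrl is not an untreated input. m7G-RIP-seq uses an antibody that recognises m7G, to which the RNA was exposed after heating to unfold it, and has 5 IP libraries and 5 Input libraries. The labels do not say whether replicates came from separate cultures, so the p-values measure the spread between these libraries, which may be technical.

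A miRNA is cut from a hairpin precursor, either arm of which can give a mature strand of about the same length. The strand is loaded into an Argonaute protein and pairs with messenger RNAs mainly through its seed, bases 2 to 8. The miR-378a hairpin lies in an intron of PPARGC1B, which encodes a coactivator of mitochondrial and lipid metabolism genes, and miR-378a is known for roles in energy metabolism. The other members come from separate hairpins and resemble the 3p strand of miR-378a.

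The sequences matter here because several members differ from miR-378a-3p by 1 or 2 bases, which limits how well reads can be told apart. RefSeq (GRCh38.p14) gave a mature sequence for 6 of the 7 members, printed below with the seed in capitals.
miR-378a-3p: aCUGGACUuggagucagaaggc
miR-378c: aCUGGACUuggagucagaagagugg
miR-378f: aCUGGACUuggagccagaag
miR-378g: aCUGGGCUuggagucagaag
miR-378i: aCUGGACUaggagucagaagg
miR-378a-5p: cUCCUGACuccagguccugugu
Positions are counted from 1 at the 5′ end, with the base of miR-378a-3p written before the position and that of the other member after it. The seed CUGGACU was common to miR-378a-3p, miR-378c, miR-378f and miR-378i. miR-378g carried A6G inside the seed, and miR-378i carried U9A just after it. miR-378f differed by U14C. miR-378c shared its first 20 bases with miR-378a-3p, differed by G21A and C22G, and ran on to 25 bases in all. miR-378a-5p, from the opposite arm, has an unrelated seed, UCCUGAC.

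Both strands of miR-378a lie on the plus strand of chr5, miR-378a-5p at chr5:149732829-149732850 and miR-378a-3p at chr5:149732867-149732888. Their hairpin, chr5:149732825-149732890, is in an intron of PPARGC1B on the same strand (GENCODE 44). It is printed here with both mature strands in capitals, to show how the arms are placed.
MIR378A hairpin: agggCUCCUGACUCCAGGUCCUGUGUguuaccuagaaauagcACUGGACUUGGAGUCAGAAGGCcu
The mature miR-378c lies at chr10:130962634-130962658 on the minus strand and miR-378f at chr1:23929121-23929140 on the plus strand, and neither hairpin overlaps an annotated gene other than the miRNA. miR-378g, at chr1:94745880-94745899 on the minus strand, is in an intron of SLC44A3-AS1. miR-378i, at chr22:41923271-41923291 on the minus strand, is in an untranslated stretch of an exon of TNFRSF13C.

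How far reads could be shared was read from exact matches in hg38. The 5′ 18 bases of miR-378a-3p matched 12 places, the 5′ 19 bases 10 places and the 5′ 20 bases 5 places, while the full 22 bases matched 2. Full-length miR-378f matched 3 places and miR-378g 4, whereas miR-378c, miR-378i and miR-378a-5p each matched 1. Of the places of miR-378a-3p, 2 lay in the miR-378 and miR-422a hairpins with a locus here at 18, 19 and 20 bases, and 1 at 22 bases. For full-length miR-378f and miR-378g it was 1 place each. The other places were not assigned, and miR-378d, without a sequence here, could not be looked for among them. The alignment settings in the study's methods kept reads that fitted up to 10 loci, fewer than the 12 places of the 5′ 18 bases. Whether multi-mapped reads were counted is not given in the sources used here. A read of the 20 bases that miR-378c shares with miR-378a-3p has no base that parts them, whereas full-length reads of miR-378f, miR-378g and miR-378i cover their differing base. Each of these differs from miR-378a-3p by 1 substitution. The alignment settings in the study's methods allowed 1 mismatch but kept only the best-scoring places. An exact full-length read would then be placed by that base, while a read with an error at that base could still be misplaced. miR-378d had no sequence here and could not be judged in this way. How many reads were shared was not measured, so the split of counts among the 3p-type members (all but miR-378a-5p) is taken as uncertain. miR-378a-5p is the member whose counts rest on a single locus with no near copy among the rows of the family.

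Red libraries held 242085 and 277498 counts, against 5874405 and 4678102 in Ctrl. Input libraries held from 7097379 to 14874685 counts and IP libraries from 2854811 to 6452759. Marker miRNAs were summed as CPM (counts scaled to the library total). The 3 epithelial markers summed to 155 to 189 CPM in Ctrl, 364 to 623 in Red, 318 to 938 in Input and 158 to 216 in IP, with miR-200c-3p and miR-200b-3p present in all libraries and miR-141-3p at 0 to 4 counts in Input and 6 to 14 in Ctrl. The liver marker miR-122-5p was at 0 in all libraries. The 3 blood cell markers summed to at most 0.681 CPM in Ctrl, 21.6 in Red, 1.34 in Input and 1.89 in IP, and the 4 muscle markers to at most 3.42, 43.2, 6.2 and 22.2. The neuronal marker miR-124-3p was at 0 in Ctrl, 12.4 to 46.8 CPM in Red, and at most 1.21 in Input and 2.32 in IP. Smooth muscle and fibroblast markers (miR-143-3p, miR-145-5p) summed to 26.1 to 38.1 CPM in Ctrl, 169 to 335 in Red, 5.51 to 21.1 in Input and 3.21 to 61.5 in IP, and the endothelial marker miR-126-3p stood at 267 to 298, 86.7 to 198, 316 to 515 and 292 to 1100. Their part in the results below was not tested.

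miR-378a-3p, the guide strand of the main hairpin, made up most of the family and fell in both pulldowns. The raw counts of miR-378a-3p in BoRed-seq were 11981 and 8368 in Ctrl and 256 and 363 in Red. After division by the size factor of each library, these became normalised counts of 3316 and 3112 in Ctrl and 948.1 and 888.3 in Red. Both Red libraries lay below both Ctrl libraries. Its log2 enrichment in Red over Ctrl was -1.81 ± 0.27 (SE), 3.50-fold lower, with an adjusted p of 1.27e-10 in the DESeq2 Wald test (2 libraries per group).

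In m7G-RIP-seq the normalised counts of miR-378a-3p were 34683, 42384, 39630, 34994 and 35125 in Input replicates 1 to 5, and 12027, 11282, 11853, 5839 and 6252 in IP replicates 1 to 5. The highest IP library stayed far below the lowest Input library, and IP replicates 4 and 5 were the lowest of all. The log2 enrichment of miR-378a-3p in IP over Input was -1.98 ± 0.25 (SE), 3.95-fold lower, with a DESeq2 adjusted p of 4.13e-14 (5 libraries per group). By mean normalised count, miR-378a-3p ranked 21 of 453 miRNAs in Ctrl and 27 of 670 in Input.

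Size factors take the typical miRNA as unchanged, so these are depletions relative to it. As a plain share of all miRNA counts, miR-378a-3p was 0.204% and 0.179% in Ctrl, and 0.106% (95% Wilson interval 0.0936% to 0.12%) and 0.131% (0.118% to 0.145%) in Red. With library totals in place of size factors the median log2 value of all BoRed-seq miRNAs moved from -0.32 to 0.765, and the log2 enrichment of miR-378a-3p was -0.69 with an adjusted p of 0.0668 (DESeq2). In m7G-RIP-seq the same change moved the median of all miRNAs from 0.019 to 0.379, and miR-378a-3p remained called at a log2 of -1.63.

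**Figure D1:**
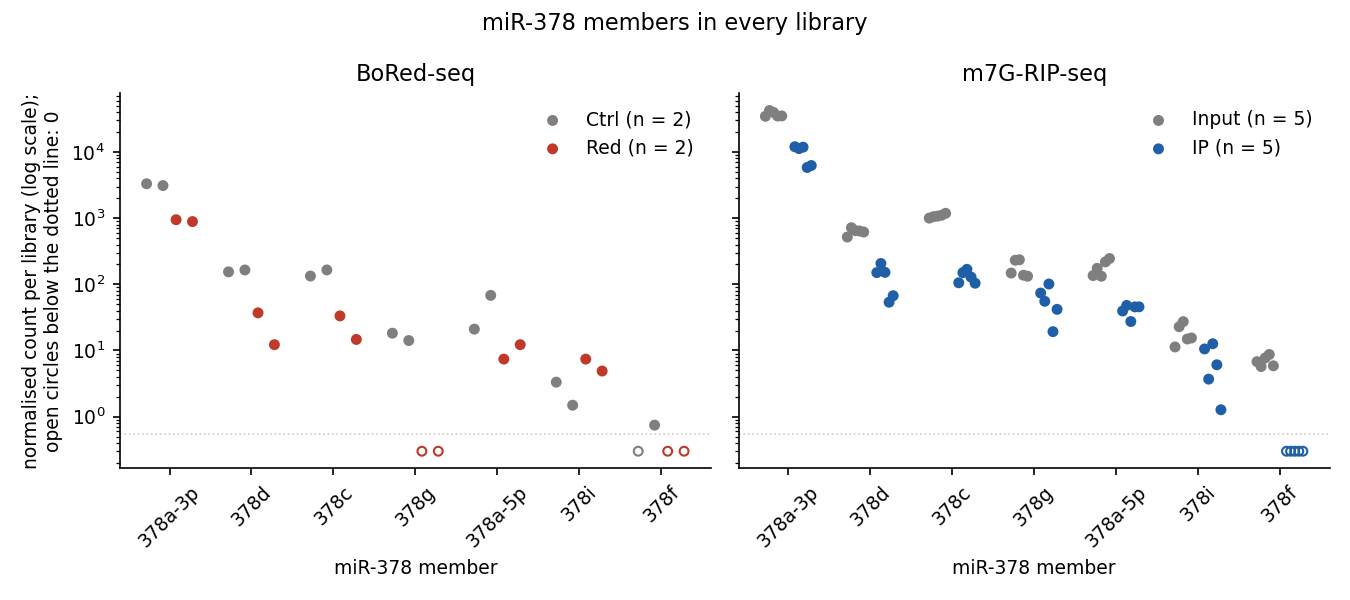
Normalised count (log scale) of each miR-378 member in every library of BoRed-seq (left, Ctrl and Red) and m7G-RIP-seq (right, Input and IP), with 1 point per library and open circles for counts of 0. miR-378a-3p stands highest in every group, at 888.3 and 948.1 in Red against 3112 and 3316 in Ctrl, and all 5 IP libraries lie below all 5 Input libraries for each member except miR-378i.

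miR-378c, the longest member with a sequence here, was depleted in both assays and had the lowest log2 enrichment of the 6 members fitted over all m7G-RIP-seq libraries. Its raw counts were 482 and 444 in Ctrl and 9 and 6 in Red, or 133.4 and 165.1 against 33.3 and 14.7 after normalisation. The Red libraries were both below the Ctrl libraries, at a log2 enrichment of miR-378c of -2.70 ± 0.58 (SE, DESeq2 adjusted p 1.06e-05). The normalised counts of miR-378c in Input ran from 1003 to 1184, and those in IP replicates 1 to 5 were 105.5, 150.1, 168.6, 128.7 and 104.1. No IP library came near the Input range, and the log2 enrichment was -3.05 ± 0.18 (SE), 8.31-fold lower, with a DESeq2 adjusted p of 4.81e-62. This placed miR-378c 54th of 670 miRNAs from the most depleted in that assay.

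miR-378d fell as well, from 558 and 443 counts in Ctrl to 10 and 5 in Red. Its normalised counts were 154.4 and 164.7 in Ctrl and 37.0 and 12.2 in Red, with a log2 enrichment of -2.78 ± 0.58 (SE, DESeq2 adjusted p 6.01e-06). Here too the groups did not overlap, and the value was -3.56 without Red replicate 1 and -2.19 without Red replicate 2, both still called. In Input replicates 1 to 5 the normalised counts of miR-378d were 518.8, 717.1, 648.4, 639.5 and 617.3, and in IP replicates 1 to 5 they were 150.4, 206.7, 151.7, 53.7 and 67.3. All IP libraries were below all Input libraries, with replicates 4 and 5 again the lowest, and the log2 enrichment was -2.32 ± 0.35 (SE, DESeq2 adjusted p 3.48e-10).

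miR-378a-5p, the strand of the opposite arm, moved the same way at far lower counts. It had 76 and 183 counts in Ctrl and 2 and 5 in Red, and normalised counts of 21.0 and 68.1 against 7.41 and 12.2. The Red values lay below the Ctrl values, but the Ctrl libraries also differed from each other, and the log2 enrichment of -2.14 ± 0.95 (SE) had a DESeq2 adjusted p of 0.0412. No fit without 1 of the 4 libraries kept the call. The log2 enrichment was -2.87 without Ctrl replicate 1, -1.71 without Red replicate 1 and -2.66 without Red replicate 2 (DESeq2 adjusted p-values of 0.103, 0.195 and 0.0906), and -1.12 ± 1.83 (SE) without Ctrl replicate 2, where DESeq2 gave no adjusted p. In m7G-RIP-seq the normalised counts of miR-378a-5p were 135.6, 174.7, 132.3, 218.2 and 245.7 in Input and 39.6, 48.0, 27.4, 45.6 and 45.7 in IP, in the order of the replicates. The groups were well apart, at a log2 enrichment of -2.12 ± 0.29 (SE, DESeq2 adjusted p 2.28e-12).

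miR-378g, the member with the altered seed, had 66 and 38 counts in Ctrl and 0 in both Red libraries. Set against a floor of 3 counts per library, its normalised level was at least 1.76-fold lower in Red. As plain shares of the library, Ctrl replicate 1 was at 0.00112% and Ctrl replicate 2 at 0.000812%. A count of 0 allows 0.00124% in Red replicate 1 and 0.00108% in Red replicate 2. Ctrl replicate 2 was under both limits, and Ctrl replicate 1 under that of Red replicate 1 only. A difference between the groups could therefore not be established on that scale at this depth. Its DESeq2 call in BoRed-seq (adjusted p 0.0163) was lost without either Red library, with adjusted p-values of 0.0686 without Red replicate 1 and 0.0909 without Red replicate 2. In m7G-RIP-seq the normalised counts of miR-378g were 148.1, 231.2, 235.3, 137.4 and 132.7 in Input and 73.9, 55.4, 101.2, 19.3 and 41.9 in IP. The highest IP library was still below the lowest Input library, and the log2 enrichment was -1.62 ± 0.41 (SE, DESeq2 adjusted p 0.000227).

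The remaining members were rare. miR-378i had 12 and 4 counts in Ctrl and 2 in each Red library, too few to enter the BoRed-seq fit. Its normalised counts in Red, 7.41 and 4.89, were above the 3.32 and 1.49 of Ctrl, but they rest on 2 counts each. In m7G-RIP-seq the normalised counts of miR-378i were 11.3, 22.9, 27.3, 14.9 and 15.5 in Input and 10.6, 3.69, 12.6, 6.08 and 1.27 in IP, and the groups overlapped. Its log2 enrichment was -1.48 ± 0.62 (SE) with a DESeq2 adjusted p of 0.0309, and the call was lost in 7 of the 10 fits that each left out 1 library, where the adjusted p reached up to 0.106. miR-378f had 6 to 14 counts in Input and 0 in all 5 IP libraries, at least 1.67-fold lower against the floor of 3 counts per library, and 0 and 2 counts in Ctrl with 0 in Red.

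Of the 7 members, 5 entered the BoRed-seq fit and all 5 were depleted, where 27.3% of all 400 miRNAs with an adjusted p were depleted and 32.2% enriched. In m7G-RIP-seq 6 members entered and all 6 were depleted, where 29.9% of 670 miRNAs were depleted and 27.3% enriched. The Red libraries lay below the Ctrl libraries for the 5 fitted members and for 43.2% of all miRNAs, and the IP libraries lay below the Input libraries for 5 of the 6 and for 24.2% of all. These counts are no independent tally. In BoRed-seq only miR-378a-3p reached 10 counts in every library, so the other 4 passed the count filter through Ctrl, which favours members that are low in Red, and near-identical members may share reads. In m7G-RIP-seq 5 members reached 10 counts in every library, and miR-378i, with 10 to 39 counts in Input and 1 to 8 in IP, passed the filter through Input. The fitted members had a median log2 enrichment of -2.70 in Red over Ctrl and -2.05 in IP over Input, where all miRNAs tested had medians of -0.0913 and 0.0187. With miR-378g at its bound in Red, the median for Red over Ctrl was -2.14. When the 3p-type members were summed, the log2 ratio of the group means was -1.86 for Red over Ctrl and -2.01 for IP over Input. The sum does not depend on which member a read was given to only if each read was counted once, which is not known. miR-378a-3p makes up most of it.

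**Figure D2:**
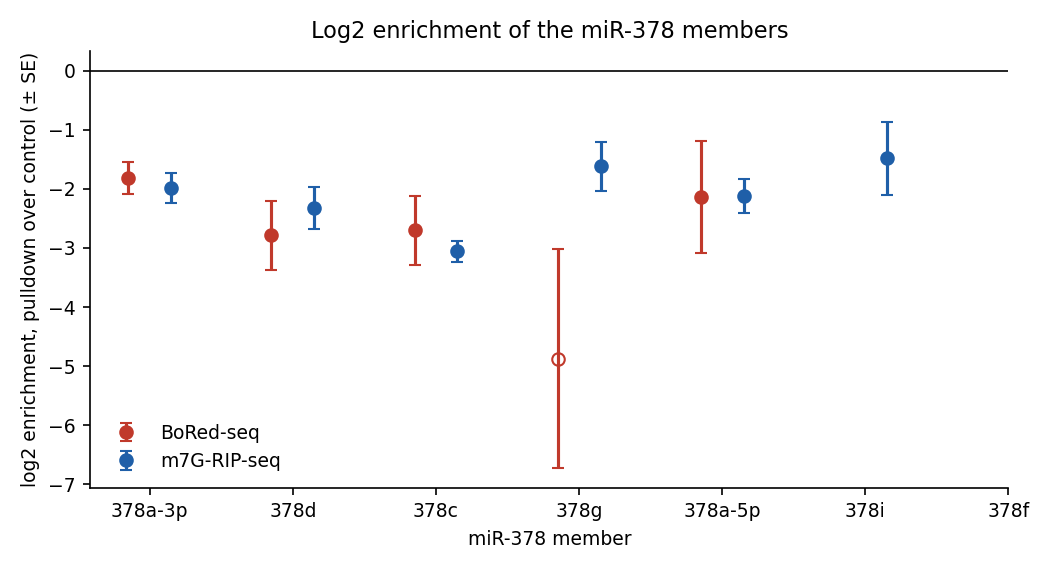
Log2 enrichment (± SE) of the miR-378 members in the pulldown over its control, for BoRed-seq (2 against 2 libraries) and m7G-RIP-seq (5 against 5). All fitted values lie below 0, in m7G-RIP-seq from -1.48 for miR-378i to -3.05 for miR-378c, the open circle for miR-378g in BoRed-seq rests on Red counts of 0 and is no estimate of size, and members without a point did not enter that fit.

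The chemical and the antibody pulldown were compared for each member by a two-sided z test of the log2 enrichments. Their controls differ in kind, since Ctrl RNA also went through the acid and biotin steps and Input was set aside before the antibody. A difference between the assays would therefore include that between the controls. None of the 5 members fitted in both assays differed at an adjusted p under 0.05, and 0 did so at an unadjusted p under 0.05, where 38% of the 384 miRNAs compared differed. An interaction term over all 14 libraries (DESeq2) gave 0 members at an adjusted p under 0.05 and 1 at an unadjusted p. The difference of BoRed-seq minus m7G-RIP-seq was 0.18 ± 0.37 (SE) for miR-378a-3p, with a 95% interval of -0.55 to 0.90 on the log2 scale. With total-count factors it was 0.93 ± 0.43 (adjusted p 0.0593), outside that interval, and in the interaction fit it was -0.28 ± 0.46. It was 0.35 ± 0.61 for miR-378c (-0.84 to 1.55), -0.46 ± 0.68 for miR-378d (-1.80 to 0.88) and -0.02 ± 0.99 for miR-378a-5p (-1.96 to 1.93). The interval of miR-378a-3p was the narrowest of these 4. The difference of miR-378g rests on the counts of 0 in Red.

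The size of the depletion varied with the replicate set in m7G-RIP-seq. With replicates 1 to 3 alone the log2 enrichment of miR-378a-3p was -1.77, and with replicates 4 and 5 alone it was -2.57. The values were -1.92 and -3.42 for miR-378d, -2.93 and -3.32 for miR-378c, -1.97 and -2.38 for miR-378a-5p and -1.47 and -2.20 for miR-378g, and these 5 members were called in each set. miR-378i was called in neither, at -1.26 (DESeq2 adjusted p 0.320) and -2.04 (0.213). The differences between the sets were not tested. Against replicates 4 and 5 alone, the enrichment of miR-378a-3p differed from that of BoRed-seq by 0.76 (z test, adjusted p 0.0248).

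Within the family, miR-378a-3p held 94.7% to 95.4% of the 3p-type counts in Input and 96.4% to 97.3% in IP. Its share was 90.0% and 91.5% in Ctrl and 96.5% and 92.4% across the Red libraries. The share of miR-378c fell from between 2.37% and 3.19% in Input to between 0.853% and 2.13% in IP, and these point values did not overlap. The 95% Wilson interval of IP replicate 4 (1.792% to 2.527%) did overlap that of Input replicate 2 (2.26% to 2.485%). That of miR-378d was 1.43% to 1.73% in Input and 0.888% to 1.77% in IP, and that of miR-378g 0.358% to 0.565% and 0.318% to 0.823%, with overlap in both. In BoRed-seq the share of miR-378c was 3.68% and 4.78% in Ctrl and 3.25% and 1.60% in Red, where it rested on 9 and 6 counts. These shares need no size factor, but reads shared among near-identical members could shift them, so they were not tested.

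**Figure D3:**
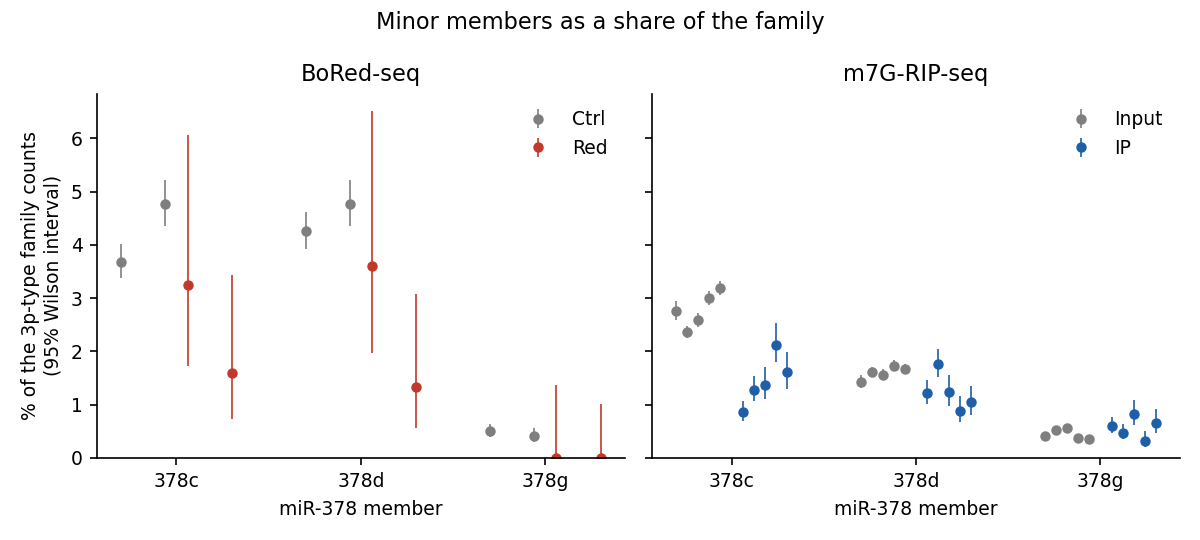
Share (%) of miR-378c, miR-378d and miR-378g in the counts of the 6 3p-type members, 1 point per library with its 95% Wilson interval, in BoRed-seq (left) and m7G-RIP-seq (right). Point values of miR-378c ran from 2.37% to 3.19% in Input and from 0.853% to 2.13% in IP, while those of miR-378d and miR-378g overlapped between those groups.

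The arms of the miR-378a hairpin were compared within each library. Here miR-378a-5p made up 0.39%, 0.41%, 0.333%, 0.62% and 0.695% of the counts of both arms in Input replicates 1 to 5, and 0.328%, 0.424%, 0.231%, 0.775% and 0.725% in IP replicates 1 to 5. Replicates 4 and 5 were the highest in Input and in IP alike. The mean was 0.49% ± 0.158 in Input and 0.497% ± 0.242 in IP (SD, n = 5 each), a difference of 0.007 percentage points with a p of 0.929 in a two-sided exact permutation test, for which 0.00794 is the smallest p. In BoRed-seq the share of the 5p arm was 0.63% (95% Wilson interval 0.504% to 0.788%) and 2.14% (1.85% to 2.47%) in Ctrl, and 0.775% (0.213% to 2.78%) and 1.36% (0.582% to 3.14%) in Red. The Red values lay between the Ctrl values, and the two-sided exact permutation test gave a p of 1, where 2 libraries against 2 cannot go below 0.333, so that comparison could not have passed 0.05.

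**Figure D4:**
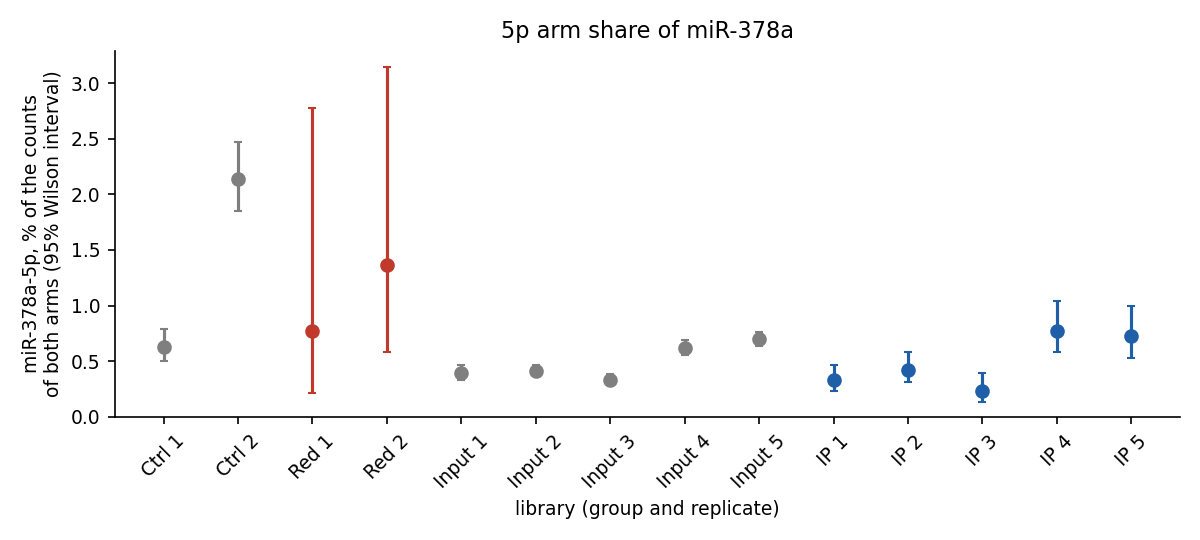
Counts of miR-378a-5p as a percentage of the counts of both miR-378a arms, 1 point per library with its 95% Wilson interval. Input and IP libraries ran from 0.231% to 0.775%, with replicates 4 and 5 the highest in each of these groups, and Ctrl replicate 2 is the highest of all at 2.14%.

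A pulldown of m7G can act only where a guanine is present, so the guanines of the mature strands were counted. There are 10 in miR-378c, 8 each in miR-378a-3p, miR-378g and miR-378i, 7 in miR-378f and 5 in miR-378a-5p. Among all miRNAs with 9 or more guanines, 3 of 59 (5.08%) were depleted in BoRed-seq and 46 (78%) enriched, and 8 of 136 (5.88%) were depleted in m7G-RIP-seq and 89 (65.4%) enriched. miR-378c was among the depleted ones in both assays. Some of its guanines lie beyond the 20 bases it shares with miR-378a-3p. The split of reads between these members is uncertain, so its place in this class is too. The other two of the 3 in BoRed-seq, named after their values were seen, were miR-138-5p (9 guanines, log2 -2.88 ± 0.54 SE, adjusted p 4.20e-07) and miR-184 (9 guanines, log2 -4.57 ± 1.58 SE, adjusted p 0.00786, both DESeq2), and miR-138-5p was also among the 8 in m7G-RIP-seq (log2 -2.17). In the class of 7 and 8 guanines, which holds most 3p-type members, 20.9% of 86 miRNAs were depleted in BoRed-seq and 27.8% of 144 in m7G-RIP-seq. In the class of 5 and 6, which holds miR-378a-5p, these shares were 33.3% of 105 and 38.7% of 155.

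**Figure D5:**
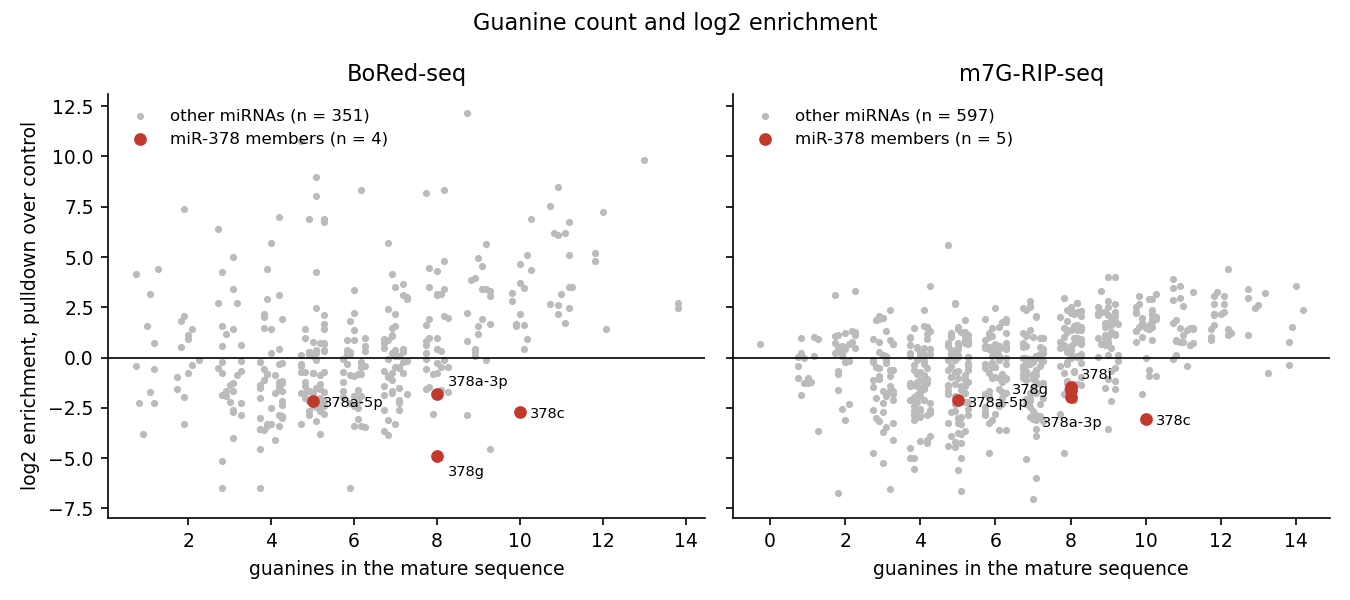
Log2 enrichment against the number of guanines in the mature sequence, 1 point per miRNA with an adjusted p and a RefSeq sequence, with miR-378 members in red and points of other miRNAs shifted sideways to part them. At 9 or more guanines the median is 3.16 (left) and 1.57 (right), where miR-378c lies at -2.70 and -3.05. The counts of miR-378c may include reads shared with miR-378a-3p.

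Other miRNAs that lie in introns of metabolic genes were compared as a list of 7, miR-33a and miR-33b (SREBF2 and SREBF1, regulators of sterol and fatty acid synthesis) and miR-103a and miR-107 (PANK genes of coenzyme A synthesis). In BoRed-seq only 2 of the 7 entered the fit, and these 2 were depleted, where 27.3% of all miRNAs tested were. In m7G-RIP-seq 4 did not enter the fit, and of those that did, 2 were depleted and 1 was not called, where 29.9% of all tested were depleted. In either assay 0 were enriched. These are too few to set against the shares over all miRNAs. The row of miR-103a-3p held 0 counts in all 14 libraries, where miR-107 had 1481 to 6425 counts in Input. Whether these counts of 0 reflect expression or the way reads were counted was not tested. miR-107 fell by a log2 of 1.23 ± 0.45 (SE, DESeq2 adjusted p 0.0119) in BoRed-seq and by 1.05 ± 0.35 (DESeq2 adjusted p 0.00560) in m7G-RIP-seq, smaller point estimates than those of miR-378a-3p. miR-33b-3p fell by 3.04 ± 0.54 in m7G-RIP-seq (DESeq2 adjusted p 1.13e-07) and by 3.82 ± 1.68 in BoRed-seq (DESeq2 adjusted p 0.0398). The latter rests on 0 and 1 counts in Red, so that miR-33b-3p passed the count filter there through Ctrl.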

How the data were processed

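Small RNA libraries of A549 cells were sequenced for BoRed-seq (2 Red, 2 Ctrl) and m7G-RIP-seq (5 IP, 5 Input). The deposited values were raw counts per mature miRNA, in 1 table per assay. The authors trimmed reads with Trimmomatic, aligned them to hg38 and counted them over mature miRNAs of miRBase with featureCounts. The study's methods name STAR as the aligner and the submitters' processing notes name Bowtie2. Counts had been neither normalized nor pooled. Reads that fitted several loci were kept up to a limit, so members of almost the same sequence may share counts. 0 columns matched no sample. Groups and replicate numbers came from the sample titles.

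Each assay was fitted alone with the Wald test of DESeq2 1.42.0 (R 4.3.3), the test that the study's methods name. No covariate was used. The count minimum was 10, reached in 2 or more BoRed-seq libraries or in 5 or more m7G-RIP-seq libraries. Size factors were medians of ratios, log2 values were not shrunken, and p-values were adjusted over all miRNAs tested by the Benjamini-Hochberg method, with calls at an adjusted p under 0.05. Ranks were taken over the 453 and 670 miRNAs in the fits. Of the 453, 400 received an adjusted p after independent filtering. The scripts were tested on simulated data. Alternatives were TMM and total-count factors, other count filters, edgeR 4.0.16, a replicate block, thinned Ctrl libraries and leaving out libraries. Shares have 95% Wilson intervals. Intervals and the floor of 3 counts cover counting error only, since the tables carry no molecular identifiers. Replicates of a group differed by more than sampling noise in every pair (chi-square per degree of freedom 12.6 to 1730).

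Replicate numbers are shared between groups in the labels. Deviations of same-numbered Input and IP libraries from their group means correlated at 0.179, 0.152, 0.146, 0.31 and 0.387. IP replicates 3 and 4 correlated best with Input replicates 1 and 5 rather than with their own numbers. These values do not settle whether the numbers pair the libraries, since a split of replicates 1 to 3 from 4 and 5 could also give them. The study's protocol makes a Red and a Ctrl reaction from each RNA sample, and saves part of the RNA as Input before the antibody. By that protocol pulldown and control are matched, but the labels do not say that equal numbers mark the same RNA. The main tests left pairing out, and a replicate block was run as an alternative. The miRNAs named are the 7 members, unlisted rows of the same number with miR-422a, the 3 miRNAs most alike to each miR-378a arm, and a list in introns of metabolic genes. Members and lists were chosen with earlier results of these data known. Mature sequences are from RefSeq, and loci were annotated with GENCODE 44.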

Additional observations from a re-analysis of the deposited data

How the results depend on the processing

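Of 157 refitted log2 enrichments of members, 138 kept their direction and their side of the threshold, 19 kept their direction but lost the call, and 0 changed direction. The lost calls were those of miR-378a-3p in BoRed-seq with total-count factors, of miR-378a-5p in BoRed-seq in 5 of 8 alternatives, of miR-378g in BoRed-seq in 2 of 5 and of miR-378i in m7G-RIP-seq in 11 of 18. The 5 calls of BoRed-seq became 2 with total-count factors (miR-378c and miR-378d), 1 with 10 counts required in every library (miR-378a-3p), and 3 with Ctrl thinned to the depth of Red, with any 1 library left out (3 to 3 over these fits) or with a replicate block. Same-numbered libraries of BoRed-seq correlated at 0.11 over 2 pairs, which does not settle whether those numbers pair the libraries either. In m7G-RIP-seq the replicate block kept all 6 calls and changed no call of a member, and leaving out 1 library gave 5 to 6 calls. Without a count filter miR-378f was also called there, at 0 counts in IP. Total-count factors raised the share of enriched miRNAs among all calls from 54.2% to 79.2% in BoRed-seq and from 47.8% to 58.6% in m7G-RIP-seq. The number of members that differed between the assays rose from 0 to 1 with replicates 4 and 5 alone. The difference in the 5p arm share of miR-378a changed sign in IP against Input on a log2 ratio scale (-0.0464), with replicates 1 to 3 alone (-0.05 percentage points) and within the range of fits without 1 library (-0.0626 to 0.0734). In Red against Ctrl it did so on the log2 ratio scale (0.0375) and without Ctrl replicate 2, in a range of -1.07 to 0.438. No exact test of the arm share passed 0.05 in these alternatives. Alternatives in which DESeq2 gave a member no adjusted p were not counted. For miR-378g in BoRed-seq these were total-count factors, the replicate block and the fits without either Ctrl library. With 10 counts required in every library or with Ctrl thinned, miR-378g did not enter the BoRed-seq fit at all. In BoRed-seq 4 of the 5 fitted members had at most 10 counts in each Red library.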

Other observations

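The miRNAs whose log2 normalised counts ran most like those of the miR-378a arms over the 10 m7G-RIP-seq libraries were named among 308 with a mean normalised count of at least 100. Those most like miR-378a-3p were miR-345-5p (Pearson r 0.983), miR-340-5p (0.977) and miR-452-5p (0.977), with log2 enrichments in IP over Input of -2.47, -1.98 and -2.71. Those most like miR-378a-5p were miR-361-5p (0.987), miR-9-5p (0.98) and miR-181a-5p (0.979), with log2 enrichments of -4.26, -1.93 and -3.62. The 10 libraries fall into 2 groups, Input and IP, and share that split, so the correlations are given as a description.

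Rows of the same number outside the 7 members were rare. miR-378b had 9 to 32 counts in Input and 0 to 4 in IP, and miR-378e 6 to 19 and 0 to 4. miR-378h had 1 to 4 counts in Input, 0 in IP, 0 in Ctrl and 2 and 1 in Red. miR-378j had 1 count in 1 Input library and 0 elsewhere, and miR-422a, which has the seed CUGGACU, had 0 in all 14 libraries.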
